A study of Homo sapiens with 4 samples.

Results

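The 10 genes of glutathione synthesis, reduction and breakdown described here were taken by gene name from an expression table of 58735 genes. They are GCLC, GCLM, GSS, GSR, GGT1, CHAC1, CHAC2, SLC7A11, OPLAH and GGCT, each present in 1 row, and all 10 passed the filter on low values in every library. RNA sequencing covered 4 libraries of a cell line given as human lung squamous carcinoma, 2 at 0 Gy and 2 at 30 Gy (gray, the unit of absorbed dose). The study worked with the line SK-MES-1 and with SK-MES-1-RR, a resistant line derived from it. No label ties a library to either of them, and the labels give neither the fractionation nor the time from irradiation to harvest, so the groups are called by dose and a difference between doses cannot be told apart from a difference between lines. No genotype or further agent is given for either group. Nothing says that replicates came from separate cultures, so every p-value reflects only how these libraries vary, and that variation may be technical.

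Glutathione is a tripeptide of glutamate, cysteine and glycine and the main small thiol of the cell. Glutamate-cysteine ligase, made of the catalytic subunit GCLC and the modifier subunit GCLM, joins glutamate to cysteine in the rate-limiting step, and GSS, glutathione synthetase, adds glycine. SLC7A11 brings in cystine, the usual source of the cysteine, and GSR, glutathione reductase, uses NADPH to return oxidised glutathione to its reduced form. GGT1 cleaves glutathione outside the cell, CHAC1 and CHAC2 cleave it in the cytosol, GGCT acts on gamma-glutamyl amino acids, and OPLAH turns the resulting 5-oxoproline back into glutamate. Several of these genes are known targets of the transcription factor NRF2 (gene NFE2L2), which binds antioxidant response elements, and CHAC1 and SLC7A11 are known targets of ATF4, a factor of the amino acid and stress response.

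Promoter sequences are shown for genes with a known link to these factors and for the subunits of the ligase, of which GCLC passed the test described below and GCLM did not. Windows of 300 bases, 250 of them before the RefSeq start site, were held for 5 of the 10 genes (GCLC, GCLM, GGT1, CHAC1 and CHAC2; 7 windows, GRCh38.p14) and were searched on both strands for TGACNNNGC, the core of the antioxidant response element, and TGATGNAA, the core of the element bound by C/EBP and ATF factors. No match to either motif overlapped a match to the other, and matches are capitalised below, written 5′ to 3′ on the strand of the gene. The first is the GCLC sequence before its start site (chr6:53545130-53545351, minus strand, 222 bases, 60.8% G and C), which holds neither motif and lies in an intron of longer GENCODE transcripts of the gene. The second is that of GCLM (chr1:93909456-93909680, minus strand, 225 bases, 74.7% G and C), with a match that reads TGACTAAGC on the other strand and ends 25 bases before the RefSeq start, its last base being the first of a GENCODE exon. The third is a 30-base stretch of CHAC1 (chr15:40953252-40953281, plus strand) whose match reads TGATGCAA on the other strand, 201 bases before the start and inside an exon of longer GENCODE transcripts. The fourth is a 30-base stretch of GGT1 (chr22:24603154-24603183, plus strand) with a match that reads TGACCCAGC on the other strand, ends 20 bases before the start and also lies inside a GENCODE exon.
GCLC: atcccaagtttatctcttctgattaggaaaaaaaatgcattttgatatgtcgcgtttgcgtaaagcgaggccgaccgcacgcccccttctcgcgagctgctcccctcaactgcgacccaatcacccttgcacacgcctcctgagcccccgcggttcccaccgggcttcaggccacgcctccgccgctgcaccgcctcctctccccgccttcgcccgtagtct
GCLM: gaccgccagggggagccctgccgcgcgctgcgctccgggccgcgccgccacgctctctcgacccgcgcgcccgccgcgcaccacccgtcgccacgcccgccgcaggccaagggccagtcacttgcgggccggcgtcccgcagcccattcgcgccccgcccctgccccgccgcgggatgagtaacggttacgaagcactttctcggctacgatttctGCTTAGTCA
CHAC1: tcccctgccgTTGCATCActcctgccaggt
GGT1: ggaaggaggaGCTGGGTCAcagcagggaat
Of all 35116 RefSeq windows of this length, 13.3% held TGACNNNGC and 3.62% held TGATGNAA. The CHAC2 windows and the other GGT1 window held neither. These matches are letters in a short window and show nothing of binding. Bases beyond the windows were not searched, so a window without a match does not show that the gene lacks an element.

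Each library held 15920861 to 17261121 recovered reads, and the 10 genes had from 108 reads (CHAC1, second 30 Gy library) to 18876 (GCLC, second 0 Gy library). Levels are in FPKM, fragments normalised to the deposited gene length and to sequencing depth. How that length relates to the transcripts expressed is not given, so levels of different genes can be compared only roughly. Pearson's r of log2(FPKM + 1) over 13379 genes reached 0.984 at 0 Gy and 0.981 at 30 Gy between replicates, and 0.956 to 0.958 across doses. Of 8 squamous and basal markers 3 (KRT5, KRT6A and DSG3) were at 0 reads in every library, KRT14 had 0 to 4 reads, TP63 had 378 to 524 and PKP1 1462 to 1929, and SOX2 and TRIM29 stayed below an FPKM of 1. Of 5 tested epithelial markers KRT7 rose from 95.8 ± 0.615 to 211 ± 14.2 FPKM and KRT19 fell from 162 ± 4.27 to 88.4 ± 6.18 (SD, n = 2; adjusted p = 0.00232 and 0.00424), and the list summed to 344 and 333 FPKM at 0 Gy and 402 and 368 at 30 Gy. That sum came nearly all from keratins, with EPCAM at 3.42 to 5.91 FPKM. The epithelial list held 6 markers, of which 5 passed the filter, so its sum says little of epithelial genes other than keratins. Fibroblast markers summed to 62.9 and 63.2 FPKM at 0 Gy and 78.8 and 72.6 at 30 Gy, nearly all COL1A1, with DCN at 0 reads and COL1A2 at 0 or 1. Among the low ones LUM had 1 and 5 reads at 0 Gy and 43 and 63 at 30 Gy, and PDGFRB stood at 0.652 and 0.717 FPKM and at 1.46 and 1.51 (adjusted p = 0.0535). PDGFRB entered the test through its 30 Gy libraries alone, so a difference was built into its passing the filter. The 5 immune markers, and likewise the 4 endothelial and the 5 lung adenocarcinoma markers, summed to at most 0.237 FPKM in any library. The part of these markers in the results was not tested.

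At 30 Gy the catalytic subunit of the ligase, glutathione reductase and the cytosolic glutathione-degrading enzyme CHAC1 were lower, and glutathione synthetase was higher. GCLC fell 3.08-fold, CHAC1 3.35-fold and GSR 2.18-fold, and GSS rose 1.30-fold, as ratios of mean FPKM over 2 libraries each. GCLM, GGT1, CHAC2, SLC7A11, OPLAH and GGCT did not pass the test. By limma on log2(FPKM + 1), with Benjamini-Hochberg adjustment over 13379 genes at 0.05, 1 of the 10 genes rose and 3 fell, where 10.8% of all tested genes rose and 9.06% fell, 19.8% in all. The median log2 change was -0.10 over the 10 genes and -0.00068 over all tested genes. Falls of at least 1 on the log2 scale, which GCLC, CHAC1 and GSR showed, were called for 1.08% of tested genes. Without either 0 Gy library no gene in the table passed, and the adjusted p of GCLC, GSR and CHAC1 ran from 0.0572 to 0.0847, while without either 30 Gy library it ran from 0.0162 to 0.0226. Values at the 2 doses did not overlap for 7 of the 10 genes, close to the 65.2% of all tested genes.

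**Figure D1:**
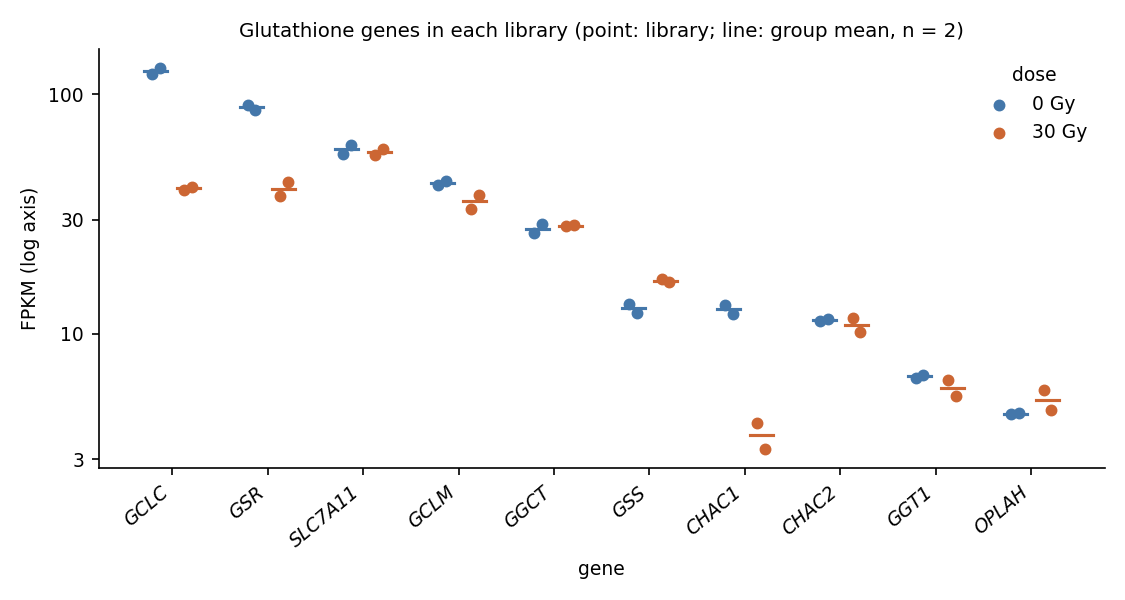
FPKM of the 10 glutathione genes (log axis) in each of the 4 libraries, ordered by the mean at 0 Gy; points are libraries and lines group means (n = 2). GCLC and GSR led at 0 Gy, with means of 125 and 88.2 FPKM, and stood at 40.6 and 40.4 at 30 Gy, below SLC7A11 at 57.5.

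Cystine import is the first step. SLC7A11 (ENSG00000151012, chr4:138164097-138242349), the transport chain of the cystine-glutamate exchanger, stood at 56.2 and 61.7 FPKM at 0 Gy and at 55.9 and 59.0 at 30 Gy. The groups overlapped, with a log2 change of -0.04 ± 0.07 (SE) and a 95% interval of -0.22 to 0.15 (adjusted p = 0.764). The sign turned when the second 0 Gy or the first 30 Gy library was left out (0.031 and 0.0026). SLC3A2, the heavy chain that carries SLC7A11 to the membrane, stood at 66.2 and 63.9 FPKM at 0 Gy and at 52.4 and 51.9 at 30 Gy. It fell by 0.31 on the log2 scale (adjusted p = 0.0240), a call that ended with every gene above 0 in the test (0.0640), without a variance trend (0.0536) and with any library left out (0.0880 to 0.134). Within a library the ratio of SLC7A11 to SLC3A2 was 0.849 and 0.965 at 0 Gy and 1.07 and 1.14 at 30 Gy, so the 30 Gy libraries were the higher ones. SLC3A2 also pairs with other amino acid transporters.

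Of the subunits of the ligase the catalytic one passed the test. GCLC (ENSG00000001084, chr6:53497341-53616970, minus strand), which holds the active site, stood at 122 and 128 FPKM at 0 Gy and at 40.03 and 41.2 at 30 Gy. The doses were far apart beside the gaps within each, and the log2 change was -1.60 ± 0.06 (SE; adjusted p = 0.000990), the 39th lowest of 13379 tested genes. GCLM (ENSG00000023909, chr1:93885205-93909456, minus strand), which raises the efficiency of the catalytic subunit, stood at 41.9 and 43.6 FPKM at 0 Gy and at 33.2 and 38.2 at 30 Gy. Both 30 Gy libraries were below both 0 Gy libraries, and the log2 change of -0.26 ± 0.08 (SE; 95% interval -0.47 to -0.04) did not pass (adjusted p = 0.0941). Counted as recovered reads with voom, GCLM did pass (-0.26, adjusted p = 0.0171, where voom called 31.3% of genes).

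The ratio of GCLC to GCLM within a library was 2.91 and 2.94 at 0 Gy and 1.20 and 1.08 at 30 Gy. In FPKM GCLC was thus well above its partner in each 0 Gy library, and at 30 Gy the values were nearly equal. The size of each ratio depends on the gene lengths used (8646 bases for GCLC and 5420 for GCLM), which were the same at both doses. The difference in change between the subunits was not tested.

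**Figure D2:**
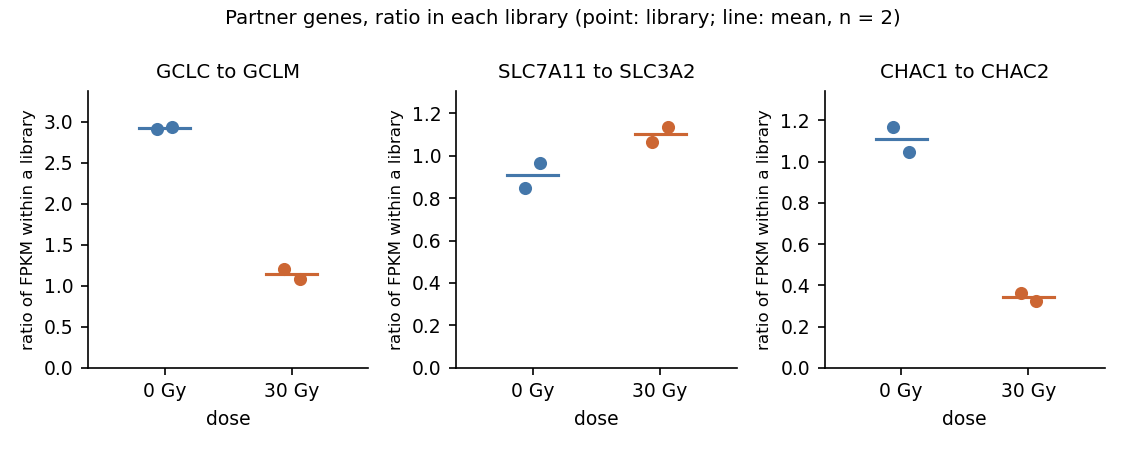
Ratio of FPKM between partner genes in each library, for GCLC to GCLM, SLC7A11 to SLC3A2 and CHAC1 to CHAC2; points are libraries, lines means of 2, and each axis starts at 0. GCLC to GCLM moved from a mean of 2.93 to 1.14 and CHAC1 to CHAC2 from 1.11 to 0.345, while SLC7A11 to SLC3A2 moved from 0.907 to 1.10.

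GSS (ENSG00000100983, chr20:34928433-34956027, minus strand), which completes the tripeptide, was the member that rose. It stood at 13.4 and 12.2 FPKM at 0 Gy and at 16.9 and 16.5 at 30 Gy, without overlap. The log2 change was 0.36 ± 0.07 (SE; adjusted p = 0.0306). This call is less firm than the 3 falls, because it did not survive testing every gene above 0 (0.0915), fitting without a variance trend (0.0533) or leaving out any of the 4 libraries (0.0924 to 0.154).

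GSR (ENSG00000104687, chr8:30678061-30727999, minus strand), the reductase, stood at 90.4 and 86.0 FPKM at 0 Gy and at 37.6 and 43.2 at 30 Gy. Both 30 Gy libraries lay far below both 0 Gy libraries. The log2 change was -1.11 ± 0.09 (SE; adjusted p = 0.00378), the 139th lowest of the tested genes.

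Among the enzymes that break glutathione down inside the cell, CHAC1 passed and its paralog CHAC2 did not. CHAC1 (ENSG00000128965, chr15:40952962-40956519), the stress-induced member, stood at 13.2 and 12.1 FPKM at 0 Gy (472 and 424 reads) and at 4.26 and 3.30 at 30 Gy (140 and 108 reads). Its log2 change was -1.52 ± 0.12 (SE; adjusted p = 0.00392), the 47th lowest. With voom it was -1.75, since the pseudocount of 1 shrinks the change of a gene at this level. CHAC2 (ENSG00000143942, chr2:53767792-53775196), which acts on the same substrate more slowly, stood at 11.3 and 11.6 FPKM at 0 Gy and at 11.7 and 10.1 at 30 Gy. The groups overlapped, with a log2 change of -0.06 (95% interval -0.29 to 0.16), of the opposite sign without the second 30 Gy library (0.028). The ratio of CHAC1 to CHAC2 was 1.17 and 1.05 at 0 Gy and 0.365 and 0.325 at 30 Gy, and the difference in change between them was not tested either.

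The remaining enzymes of the cycle did not pass. GGCT (ENSG00000006625, chr7:30496621-30504844) stood at 26.3 and 28.7 FPKM at 0 Gy and at 28.2 and 28.3 at 30 Gy, with overlap and a 95% interval of -0.14 to 0.22 on the log2 scale. Its change of 0.04 turned to -0.021 without the first 0 Gy library. OPLAH (ENSG00000178814, chr8:144051266-144063965), the oxoprolinase, stood at 4.62 and 4.68 FPKM at 0 Gy and at 5.81 and 4.81 at 30 Gy, an interval of -0.11 to 0.42. GGT1 (ENSG00000100031, chr22:24583750-24629005), the cell-surface transferase, stood at 6.54 and 6.75 FPKM at 0 Gy and at 6.43 and 5.51 at 30 Gy, an interval of -0.37 to 0.10. For OPLAH and GGT1 the doses did not overlap, but the 30 Gy libraries differed from each other by more than the gap between doses. GGT1 is uncertain on further grounds. Its locus overlaps SNRPD3 on the same strand over 26231 bases (1008 to 1417 reads per library). The locus also overlaps LRRC75B on the other strand over 7589 bases (124 to 150 reads per library). GGT1 has near-identical relatives, GGT2, GGTLC1, GGTLC2 and GGTLC3, each listed at 0 reads in all libraries. For GGT2, 3 reads, the limit a count of 0 allows, would be 0.0728 to 0.0797 FPKM. How reads were split between copies is therefore not known. The pseudogene GGT8P held 75 and 52 reads at 0 Gy and 33 and 25 at 30 Gy, against 505 and 509, then 455 and 389, for GGT1.

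**Figure D3:**
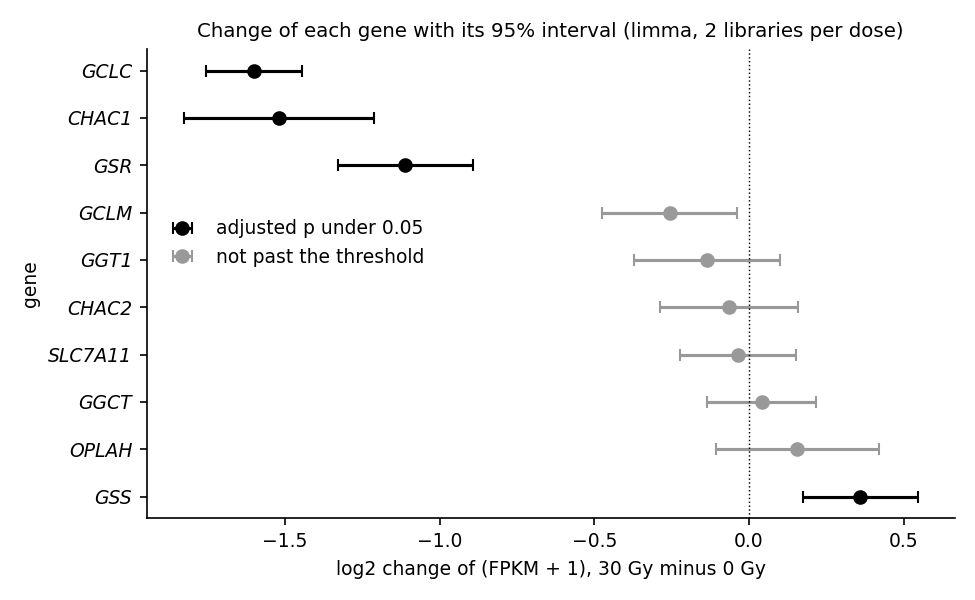
Log2 change of FPKM + 1 between 30 Gy and 0 Gy for each gene, with its 95% interval from limma (2 libraries per dose); black marks an adjusted p under 0.05. The intervals of GCLC, CHAC1 and GSR lie below -0.89, that of GSS above 0.17, and 5 of the 6 grey intervals include 0.

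In order of FPKM, which depends on the gene lengths used, GCLC, GSR, SLC7A11, GCLM and GGCT followed each other at 0 Gy with no overlap between neighbours, and GSS and CHAC1 overlapped (12.2 to 13.4 and 12.1 to 13.2 FPKM). At 30 Gy SLC7A11 was highest, GCLC overlapped GSR and GSR overlapped GCLM (37.6 to 43.2 and 33.2 to 38.2 FPKM). CHAC1 moved from the 7th place to the 10th, below OPLAH. Summed over the 10 genes, the level was 386 and 396 FPKM at 0 Gy and 240.1 and 250.1 at 30 Gy. Most of that difference came from GCLC (means of 125 and 40.6 FPKM) and GSR (88.2 and 40.4). The sum therefore says little of the other members, of which GSS rose and 6 did not pass.

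The other genes of the pathway were read from 6 lists picked by textbook role. Of 59 tested genes 7 rose and 16 fell, beside the 10.8% and 9.06% of all tested genes. Testing every gene above 0 called 7 of them, SLC1A4, SLC1A5, ANPEP, ABCC1, ABCC3, ATF4 and TRIB3. Leaving out a 30 Gy library called 11 genes (the first left out, CBS among them) or 10 (the second), and leaving out a 0 Gy library called 0. SLC3A2, SLC1A4, MAT2A, SHMT1, GLUL, CNDP2, GPX3, GLO1, SLC25A11, KEAP1, BACH1 and ATF3 were not called with any of the 4 libraries left out. Of 10 tested genes of cysteine and cystine supply 0 rose and 4 fell (list median -0.18). Besides SLC3A2 these were SLC1A4, a neutral amino acid transporter (12.03 and 12.6 FPKM at 0 Gy, 8.42 and 8.17 at 30 Gy), MAT2A, which makes S-adenosylmethionine (61.5 and 63.6, then 48.6 and 48.3), and CTH, which releases cysteine from cystathionine (7.66 and 7.82, then 5.40 and 4.74). In all 4 genes both 30 Gy libraries were below both 0 Gy libraries. CBS, the enzyme before CTH, gave 6.29 and 6.67 FPKM at 0 Gy and 5.10 and 1.89 at 30 Gy and did not pass, the 30 Gy libraries being far apart.

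Of 10 tested genes of glutamate and glycine supply 2 rose and 1 fell (median 0.06). SLC1A5, a glutamine transporter, fell from 94.2 ± 2.25 to 56.6 ± 4.57 FPKM (SD, n = 2; adjusted p = 0.00703), SHMT1, which makes glycine from serine in the cytosol, rose from 3.87 ± 0.110 to 5.63 ± 0.0470, and GLUL, glutamine synthetase, rose from 11.0 ± 0.256 to 14.2 ± 0.743 (adjusted p = 0.0208 and 0.0318). The call of GLUL was also lost with every gene above 0 in the test (0.0890) and without a variance trend (0.0538).

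Only 4 of 13 other gamma-glutamyl cycle enzymes and dipeptidases were tested, and 8 were at 0 reads in every library, among them the dipeptidases DPEP1, DPEP2 and DPEP3. ANPEP, a surface aminopeptidase that can split cysteinylglycine, rose from 70.9 ± 2.35 to 113 ± 5.004 FPKM (SD, n = 2; adjusted p = 0.00601). CNDP2, a cytosolic dipeptidase for the same product, fell from 12.7 ± 0.0104 to 10.3 ± 0.117 (adjusted p = 0.0396), a call lost under 4 of 11 alternatives that keep all libraries (adjusted p up to 0.0781). GGT7 and LAP3 did not pass.

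Enzymes that use glutathione were read only as peroxidases, glutaredoxins and glyoxalases. Of 12 tested 2 rose and 0 fell (median 0.02), beside the 10.8% and 9.06% of all tested genes. GPX3, a secreted peroxidase, rose from 44.3 ± 1.33 to 59.4 ± 1.80 FPKM and GLO1, which uses glutathione to clear methylglyoxal, from 62.0 ± 0.330 to 80.8 ± 3.80 (SD, n = 2; adjusted p = 0.0149 and 0.0193). GPX4, which reduces lipid peroxides, gave 103 ± 7.63 and 91.3 ± 0.610 and GPX1 143 ± 4.34 and 158 ± 12.1, and neither passed.

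Of 8 tested transporters 2 rose and 2 fell (median -0.05). The exporters ABCC1 and ABCC3, which carry glutathione and its conjugates out of the cell, fell from 16.4 ± 0.626 to 8.78 ± 0.265 and from 45.3 ± 1.29 to 29.8 ± 0.605 FPKM (SD, n = 2; adjusted p = 0.00423 and 0.00661). The mitochondrial carriers SLC25A10 and SLC25A11 rose, to 5.67 ± 0.731 and 20.0 ± 0.765, with adjusted p of 0.0277 and 0.0448, and the call of SLC25A11 was lost under 5 of 11 alternatives that keep all libraries (adjusted p up to 0.0989). SLC25A39, a mitochondrial glutathione importer, gave 82.8 and 74.7 FPKM and did not pass.

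**Figure D4:**
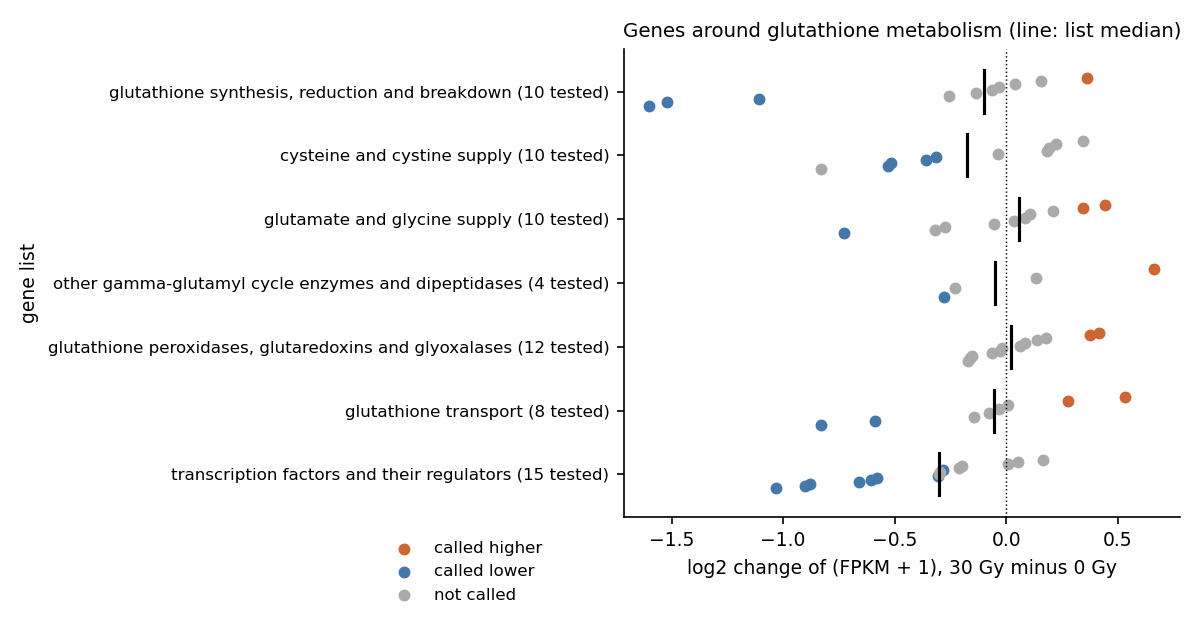
Log2 change of FPKM + 1, 30 Gy minus 0 Gy, of every tested gene in the set of 10 and in 6 lists around it; each point is a gene, coloured by its call, and black lines are list medians. GCLC, CHAC1 and GSR lie at -1.60, -1.52 and -1.11, and the list of transcription factors and their regulators has the lowest median, -0.30.

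The list of transcription factors known to regulate these genes, and of proteins that act on those factors, held 0 rises and 8 falls among 15 tested genes (median -0.30). KEAP1 and TRIB3, both among the 8, are not transcription factors, and ATF3, also among them, entered the test through its 0 Gy libraries alone, so a difference was built into its passing the filter. NFE2L2 itself stood at 41.3 and 46.3 FPKM at 0 Gy and at 45.1 and 45.5 at 30 Gy, with overlap and no call. KEAP1, which marks NRF2 protein for degradation, fell from 42.0 ± 0.865 to 34.3 ± 0.458 FPKM and BACH1, which competes with NRF2 for its sites, from 11.6 ± 0.185 to 9.20 ± 0.132 (SD, n = 2; adjusted p = 0.0311 and 0.0330), both calls being lost under 3 of 11 alternatives that keep all libraries (adjusted p up to 0.0697 and 0.0755). MAFG, a small MAF partner of both, fell from 41.2 ± 0.348 to 26.8 ± 2.18. MAFF and MAFK did not pass, nor did NFE2L1, whose change of 0.01 was negative under median centring, quantile normalization and equal sums (-0.0096, -0.030 and -0.018). Message levels say nothing of the amount of NRF2 protein, which is set mainly by its degradation.

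ATF4 fell from 147 ± 7.30 to 97.6 ± 1.05 FPKM (SD, n = 2), a log2 change of -0.58 (adjusted p = 0.00757). TRIB3, a pseudokinase that binds ATF4, fell from 20.6 ± 1.16 to 9.60 ± 1.05 FPKM and DDIT3, the factor CHOP, from 19.1 ± 0.469 to 9.77 ± 1.30 (adjusted p = 0.00543 and 0.00799). ATF3 fell from 2.15 ± 0.0560 to 0.714 ± 0.0419. MYC fell from 108 ± 4.98 to 68.2 ± 6.32. CEBPB, CEBPG and ATF5 did not pass. CHAC1 and SLC7A11 are both known ATF4 targets, and the log2 changes measured for them were -1.52 and -0.04.

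Position was examined because the rule did not use it. For each of the 10 genes the 5 nearest tested protein-coding genes on each side were read. Around GSS, on the long arm of chromosome 20, all 10 neighbours had positive log2 changes, from 0.11 to 0.69 with a median of 0.28, and 5 of them rose (TP53INP2, TRPC4AP, EDEM2, PROCR and MMP24OS) and 0 fell. The change of GSS itself, 0.36, lay inside that range. Of all tested genes 10.8% rose and 9.06% fell, with a median log2 change of -0.00068. Around GCLC 2 neighbours rose and 1 fell, with a median of 0.22 and a lowest value of -0.34, against -1.60 for GCLC. Around CHAC1 all 10 neighbours were also positive, from 0.02 to 0.76, against -1.52, and 2 of them rose and 0 fell. Around GSR the neighbours ran from -0.77 to 0.25, against -1.11. The values of these 3 genes lay below those of every neighbour read, and that of GSS lay within the range of its neighbours. GCLC, CHAC1 and GSR were the 39th, 47th and 139th lowest of all tested genes. Most sets of 10 genes would therefore lie above them, wherever those genes are located. Whether the changes belong to a region or to the single gene was not tested. The neighbours of the other 6 genes had medians of -0.12 to 0.24.

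**Figure D5:**
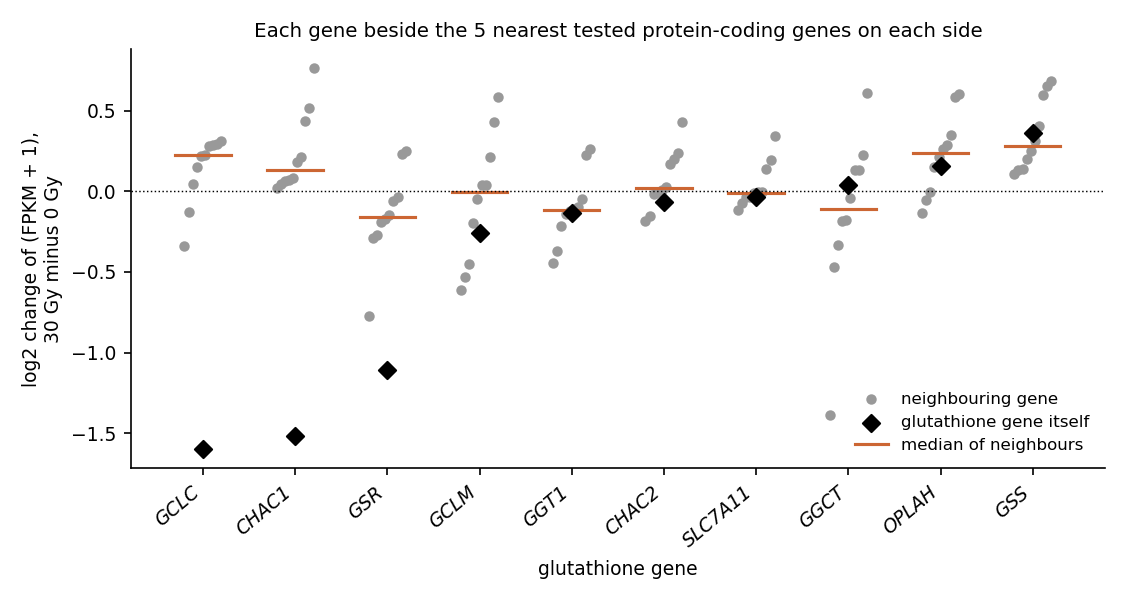
Log2 change of FPKM + 1, 30 Gy minus 0 Gy, of each glutathione gene (diamond) and of the 5 nearest tested protein-coding genes on each side (grey points, orange line their median). GCLC, CHAC1 and GSR lie below all of their neighbours, and all 10 neighbours of GSS and all 10 of CHAC1 are above 0.

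Some members share their locus with other genes, and whether counting used strand is not given in the sources used here. GCLC overlaps an antisense gene (11 to 44 reads) and a lincRNA (14 to 44 reads), and SLC7A11 overlaps SLC7A11-AS1 (63 to 99 reads), few beside the 5525 to 18876 reads of GCLC and the 8612 to 10114 of SLC7A11. CHAC2 lies within ASB3 on the other strand (32 to 43 reads, against 213 to 260 for CHAC2). GGCT and OPLAH overlap genes with at most 2 and 25 reads. No gene in the table overlaps GCLM, GSS, GSR or CHAC1.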

How the data were processed

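RNA sequencing of 4 libraries, 2 per dose, was grouped by the library names in the labels. The authors deposited FPKM values per gene and library, with positions and a gene length column in bases on the build hg38 named by the submitters' processing notes. Aligner, counter and annotation: not given in the sources used here. Multiplied by gene length, 100% of the values above 0 were whole multiples of what 1 read is worth in that library (tolerance 0.001), which gave reads per gene. Genes reaching an FPKM of 1 in 2 or more libraries were fitted with limma 3.58.1 (R 4.3.3; eBayes with trend, two-sided, no covariate, 2 residual and 2.98 prior degrees of freedom) on log2(FPKM + 1), a scale that understates changes of low genes. The fit was also run on simulated reads with independent replicates and a shared dispersion. That run checks the code and says nothing of how reliable the calls here are. P-values of this fit were adjusted over 13379 genes, and intervals use the moderated variance. The alternatives listed below were each adjusted over the genes they tested. These were 30687 with every gene above 0, 7734 with a filter at FPKM 5 and 13379 otherwise. Named genes are the 10 members, the 15 genes listed as transcription factors or their regulators, SLC3A2, and up to 4 called genes with the smallest adjusted p from each other list; others named complete a count or were chosen after their values were seen. The members and lists were chosen with earlier results of these data known. Alternatives were other filters, a pseudocount of 0.1, scalings, gene length, variance models, a replicate block, limma's voom on the reads (library sizes by trimmed mean of M values) and each library left out. Replicates differed by more than sampling noise (mean chi-square per gene 6.31 and 5.68). Read counts limit precision by counting error only. The values of 1 listed gene are not reported here.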

Additional observations from a re-analysis of the deposited data

How the results depend on the processing

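GCLC, GSR and CHAC1 stayed lower and called under the 11 alternatives that keep all libraries, at log2 changes of -1.63 to -1.58, -1.17 to -1.11 and -1.75 to -1.52. Without either 0 Gy library no gene passed (3422 and 3460 at an unadjusted p under 0.05), so every member call was lost. GCLC then had adjusted p of 0.0572 and 0.0623, GSR 0.0809 and 0.0813, and CHAC1 0.0847 and 0.0840, at changes within the range over single libraries left out (-1.64 to -1.56, -1.21 to -1.01 and -1.67 to -1.37). With a library left out, its group's lone sample is assumed to vary like the other group, and the counts called ran from 0 to 898 of all genes (0 without either 0 Gy library, 898 when the first 30 Gy library was dropped and 862 when the second was), 0 to 3 of the 10 genes and 0 to 11 over the pathway lists (0 to 2 for cysteine supply, 0 to 1 for glutamate and glycine, 0 to 1 for other cycle enzymes, 0 to 0 for peroxidases, 0 to 3 for transport and 0 to 5 for transcription factors and their regulators). Testing every gene above 0 called 604 genes, 3 of the 10, and 7 over the pathway lists (1, 1, 1, 0, 2 and 2 in the same order). voom called 4184 genes and 5 of the 10, and 5 for glutamate and glycine, as did a filter at FPKM 5 (5). The list of other cycle enzymes dropped to 1 call, ANPEP, with equal FPKM sums, without trend and with the replicate block. Ratios of FPKM + 1 gave 2.88 for GCLC to GCLM at 0 Gy and 0.401 for CHAC1 to CHAC2 at 30 Gy. The sign of 5 genes that did not pass turned. With a library left out CHAC2 ran from -0.16 to 0.028, SLC7A11 from -0.10 to 0.031 (0.0026 without the first 30 Gy library), GGCT from -0.021 to 0.10, NFE2L2 from -0.030 to 0.13 and NFE2L1 from -0.017 to 0.033, and NFE2L1 was also -0.0096, -0.030 and -0.018 under median centring, quantile normalization and equal sums. The cause of these shifts was not tested.

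Replicate numbers are shared between the doses but no label pairs them. Deviations of same-numbered libraries correlated at -0.03 over 13379 genes. With the replicate number as a block 1926 genes were called in all and 4 of the 10, and of the genes named here KEAP1 (0.0541), BACH1 (0.0597), CNDP2 (0.0662) and SLC25A11 (0.0604) no longer passed.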
